A study of Mus musculus with 4 samples.

Results

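The neural stem cell transcription factors described here are 9 genes, Sox2, Sox9, Sox1, Pax6, Lhx2, Nr2e1, Emx2, Hopx and Rest, out of the 25261 genes listed in the deposited files. They were taken by name, through their Ensembl identifiers in the GENCODE M21 annotation. No cutoff on measured values was used, but the choice was made with earlier results of these data known. All 9 were listed in every library, and all 9 passed the minimum value set for testing. RNA sequencing was done on total RNA of adult neural stem cells from C57BL/6 mice aged 8 weeks. The ctrl group (2 libraries) was infected with a lentivirus carrying a scramble short hairpin RNA, and the shOGT group (2 libraries) with a lentivirus carrying a short hairpin RNA against mouse Ogt. Cells trim a short hairpin RNA to a small guide that directs matching transcripts to be destroyed, so both groups share infection and hairpin expression and differ in the hairpin's target. The labels do not give the brain region, the number of animals pooled or whether replicates were separate cultures. The p-values therefore measure only how far these samples differ, and that spread may be technical.

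Neural stem cells of the adult brain keep dividing and give rise to neurons and glia, and a small set of transcription factors holds them in that state. Sox2, a factor with an HMG box that bends DNA, is required for self-renewal, its relative Sox1 marks early neural progenitors, and Sox9 supports stem cell and astrocyte fate. Pax6, Lhx2 and Emx2 carry homeodomains and pattern the developing forebrain, while Nr2e1 (also called Tlx) is an orphan nuclear receptor that represses transcription and sustains proliferation. Hopx, a small homeodomain protein that does not bind DNA, marks quiescent radial stem cells, and Rest is a zinc finger repressor that keeps neuronal genes silent outside neurons. Ogt encodes the enzyme that attaches O-GlcNAc, a single sugar, to nuclear and cytoplasmic proteins.

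Short stretches of promoter are shown because the factors other than Hopx act by reading DNA. No match is assigned to any of the 9 factors as its reader. RefSeq promoter windows (GRCm38.p6, 250 bases before to 50 bases after a start) were at hand for 7 of the 9 genes, in 10 windows, and were searched on both strands. The SOX core letters ACAAAG lay in the windows of 3 of these 7 genes and in 18.7% of all 32851 windows, so a match is common. The octamer ATGCAAAT was found in 1 of the 7 genes and in 1.74% of all windows, and the homeodomain core TAATTA, which reads the same on both strands, in 1 of the 7 and in 5.29%. The matches are printed 5′ to 3′ with the searched letters in capitals. Here and for later matches, distances are counted from the RefSeq start of the window. For some genes that start differs from the GENCODE span given below.
Sox2, chr3:34649784-34649799, plus strand, 204 bases before the start, within the span of Sox2ot: gggatACAAAGgttcc
Pax6, chr2:105682304-105682319, plus strand, 152 bases before a RefSeq start that lies inside the gene: ctgtcACAAAGtgaca
Nr2e1, chr10:42583576-42583591, minus strand, 6 bases after the start: caggcACAAAGtcaca
Sox1, chr8:12395532-12395549, plus strand, 22 bases after the start: gcgccATGCAAATcaccg
Emx2, chr19:59458721-59458736, plus strand, 38 bases after the start: cgcacTAATTAggctc
Each is a match of letters in a window and not a measured binding site.

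The deposited values behaved as reads divided by a single factor per library, and taken so the libraries held 15697508 to 17753976 reads assigned to genes, with 22607 to 22931 genes above 0. Ogt, the target of the hairpin, was measured at 4112 and 4138 in the ctrl libraries and at 3379 and 3516 in the shOGT libraries. It was 16.4% lower in shOGT (log2 fold change -0.26 ± 0.04 (SE), limma adjusted p = 0.00876), and the groups did not overlap. Of the neural stem cell markers, Nes ranged from 13187 to 15395, Vim from 30676 to 33435 and Slc1a3 from 45150 to 50018. Prom1, a surface marker, was low, at 17.9 to 26.6. Olig1, an oligodendrocyte lineage factor, ranged from 36350 to 37848, while Mog, a marker of mature oligodendrocytes, was at most 1 in every library. Summed microglial markers ranged from 8.93 to 11.3 and endothelial markers from 14.0 to 35.1. In bulk RNA, fewer cells of a type and less RNA per cell cannot be told apart.

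Across the 21829 genes tested, shOGT exceeded ctrl for 427 (1.96%) and lay under it for 633 (2.9%) at a limma adjusted p under 0.05, or 4.86% in either direction. With libraries rescaled to equal totals the split was 593 higher and 585 lower. At an unadjusted p under 0.05, 1969 genes were higher (9.02%) and 2245 lower (10.3%). Both shOGT values lay above both ctrl values for 25% of the genes tested and below them for 24.3%. These shares are the background for the counts of factors and related genes. When either shOGT library was left out, no gene passed the adjusted threshold anywhere in the table, with 3229 (without shOGT 1) and 3186 (without shOGT 2) genes at an unadjusted p under 0.05. Every call on a named gene was therefore lost without shOGT 1 and without shOGT 2.

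Of the 9 factors, 1 fell in shOGT by the adjusted test, Lhx2, and none rose, beside 2.9% and 1.96% of all genes tested. At an unadjusted p under 0.05 the counts were 3 lower (Lhx2, Hopx and Rest) and 0 higher, beside 10.3% lower and 9.02% higher of all genes tested. Both shOGT values lay below both ctrl values for 5 factors (Sox2, Lhx2, Nr2e1, Hopx and Rest), beside 24.3% of all genes tested. At a mean value of at least 100, this held for 3556 of 11080 genes tested. The groups overlapped for Sox9, Sox1, Pax6 and Emx2. The median log2 fold change of the 9 was -0.09, beside 0.001 over all genes tested, with 7 negative and 2 positive values. With a stricter minimum value of 10, under which 12.6% of the genes tested were called, 3 of the 9 passed, namely Lhx2, Hopx and Rest.

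**Figure D1:**
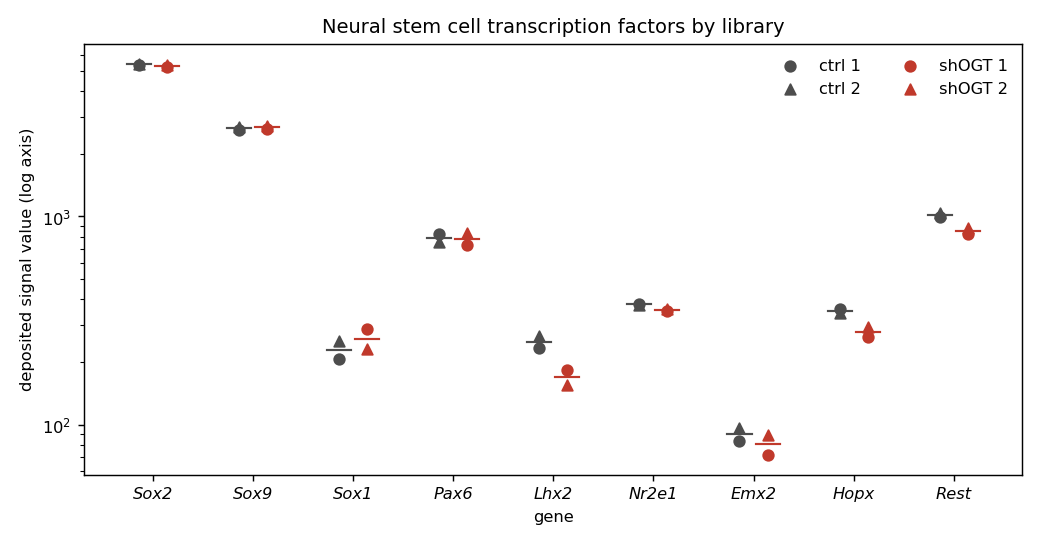
Deposited signal value (log axis) of the 9 factors in each of the 4 libraries, with 1 point per library. Sox2 ranges from 5250 to 5429 and Emx2 from 71.2 to 96.2, and for Lhx2, Hopx and Rest both shOGT points lie below both ctrl points.

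Levels of the 9 factors were compared with each other per kilobase of exon, using the merged exons of the GENCODE M21 transcripts. On that scale Sox2 stood first at 2595 (range over the 4 libraries 2552 to 2639), and Sox9 was next at 645 (632 to 661). Hopx followed at 208 (174 to 236), Rest at 130 (114 to 144), Nr2e1 at 98.8 (94.3 to 103) and Pax6 at 67.2 (62.2 to 71.4). The lowest levels were those of Sox1 at 50.5 (42.9 to 59.6), Lhx2 at 47.7 (35.4 to 60.5) and Emx2 at 28.4 (23.7 to 32.1). Sox1 and Lhx2 were the only neighbours in this order whose ranges overlapped. The transcripts of Pax6 add up to 11694 exon bases over 26 transcripts, so its level per kilobase is a low estimate if the cells use few of them.

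Sox2 (ENSMUSG00000074637, chr3:34650405-34652461, plus strand) was measured at 5339 and 5429 in ctrl and at 5250 and 5334 in shOGT. The shOGT values lay just below the ctrl values, and the means were 5384 ± 63.4 and 5292 ± 59.1 (SD, n = 2 each), a difference of -1.72%. The log2 fold change was -0.02 (95% interval -0.11 to 0.06, limma adjusted p = 0.773), so a change of the size seen for Ogt lies outside the interval. Sox9 (chr11:112782224-112787760, plus strand) was measured at 2615 and 2694 in ctrl and at 2628 and 2732 in shOGT. The groups overlapped, and the log2 fold change was 0.01 (limma adjusted p = 0.909). Sox1 (chr8:12395295-12400126, plus strand) was measured at 207 and 251 in ctrl and at 288 and 230 in shOGT. Its means differed by 13% with overlapping groups, and its interval, -0.13 to 0.48, was wider than those of Sox2 and Sox9 (limma adjusted p = 0.545).

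Sox3, the third SOXB1 factor beside Sox1 and Sox2, was the member of the family that rose. It was measured at 1851 and 1967 in ctrl and at 2428 and 2290 in shOGT (log2 fold change 0.31 ± 0.05, limma adjusted p = 0.0122). Of 14 other SOX factors tested, it was the 1 that passed, with 0 lower, beside 1.96% higher and 2.9% lower of all genes tested. At an unadjusted p under 0.05, 3 were higher and 2 lower (9.02% and 10.3% of all genes tested), and the median log2 fold change was 0.05. Sox13 (log2 fold change 0.40, limma adjusted p = 0.0541) and Sox11, a factor of newborn neurons (0.16, limma adjusted p = 0.206), did not pass. Neither did Sox8 (-0.13, limma adjusted p = 0.116) and Sox12 (-0.16, limma adjusted p = 0.184), which were lower.

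Lhx2 (chr2:38339281-38369733, plus strand), a LIM homeodomain factor that patterns the cortex and hippocampus and restrains early neuronal and glial differentiation, was the factor that fell. It was measured at 234 and 266 in ctrl and at 183 and 156 in shOGT, and the groups did not overlap. The means were 250 ± 22.3 and 169 ± 19.3 (SD, n = 2 each), a difference of -32.3% (log2 fold change -0.56 ± 0.12 (SE), 95% interval -0.84 to -0.29, limma adjusted p = 0.0339). The adjusted p passed 0.05 in 7 of 13 alternative settings and ranged from 0.000242 to 0.343 over them, while the log2 fold change stayed between -0.68 and -0.45. Leaving out single libraries gave 0.0632 without ctrl 2, 0.289 without shOGT 1 and 0.307 without shOGT 2.

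**Figure D2:**
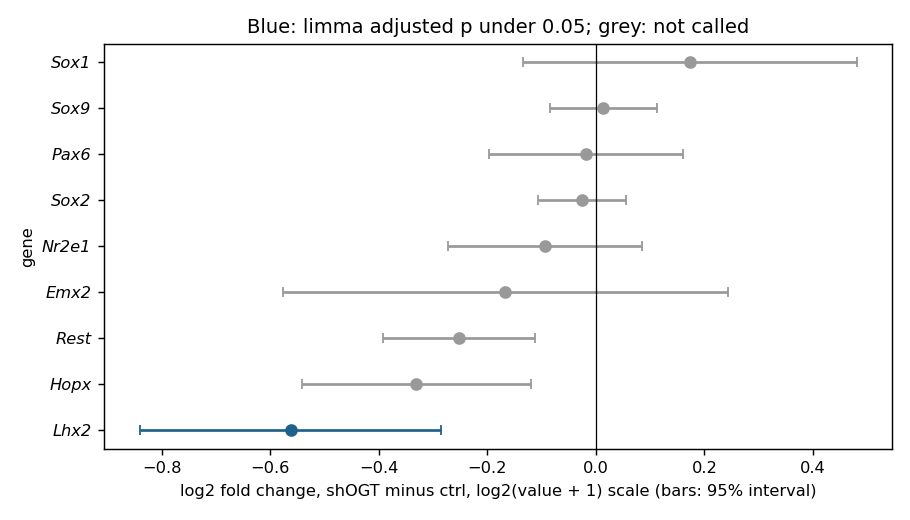
Log2 fold change of each factor, shOGT minus ctrl, on the log2(value + 1) scale, with bars for the 95% interval and blue for the gene with a limma adjusted p under 0.05. The interval of Lhx2, -0.84 to -0.29, and those of Hopx and Rest lie below 0, and the other 6 cross 0.

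LIM homeodomain proteins act with the bridging factor Ldb1 and are held back by LMO proteins that compete for it. Of 10 such cofactors tested, 1 fell and 0 rose, beside 2.9% and 1.96% of all genes tested. At an unadjusted p under 0.05, 3 were lower and 0 higher, beside 10.3% and 9.02% of all genes tested. The median log2 fold change of the cofactors was -0.03. The one that fell was Lmo1, measured at 547 and 496 in ctrl and at 404 and 355 in shOGT (log2 fold change -0.46 ± 0.09, limma adjusted p = 0.0227). Ldb1 itself had a log2 fold change of 0.05 (limma adjusted p = 0.632).

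The pattern of Lhx2 over the 4 libraries was compared with that of the 11080 tested genes with a mean value of at least 100, by the Euclidean distance between centred log2 values. The nearest were the pseudogene Nutf2-ps1 (distance 0.0677), Basp1 (0.0930) and Flrt3 (0.0977). Basp1, a membrane-bound growth cone protein, was measured at 3107 and 3468 in ctrl and at 2286 and 2128 in shOGT, and it fell (log2 fold change -0.57 ± 0.06, limma adjusted p = 0.00168). Flrt3, a cell adhesion receptor (log2 fold change -0.47, limma adjusted p = 0.103), and Nutf2-ps1 (-0.50, limma adjusted p = 0.107) did not pass. Nutf2-ps1 is a processed copy of another gene, so reads could have been shared with it.

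Pax6 (chr2:105668900-105697364, plus strand), which drives forebrain and eye progenitors, was measured at 824 and 757 in ctrl and at 727 and 835 in shOGT. The groups overlapped, the log2 fold change was -0.02 (95% interval -0.20 to 0.16, limma adjusted p = 0.931), and its sign turned to 0.04 without ctrl 1 and to 0.08 without shOGT 1. Emx2 (chr19:59458372-59465357, plus strand), which patterns the hippocampus and cortex, was measured at 83.8 and 96.2 in ctrl and at 71.2 and 89.6 in shOGT. Its groups overlapped and its interval was the widest of the 9, -0.58 to 0.24 (log2 fold change -0.17, limma adjusted p = 0.681). Taken as reads, these values stand for 84, 97, 67 and 95, so counting error adds to the spread between libraries. The exons of Emx2 share 264 bases, 8.79% of their length, with the antisense gene Emx2os, and whether counting used strand is not given in the sources used here. Emx2os was measured at 36.9, 43.6, 42.5 and 50.9 (log2 fold change 0.21, limma adjusted p = 0.693). Sox1 lies within the span of the long noncoding gene Sox1ot, which shares no exon bases with it and was measured at 15.0 and 7.94 in ctrl and at 24.5 and 33.0 in shOGT (log2 fold change 1.30, limma adjusted p = 0.104). A miRNA gene, Gm25239, lies wholly inside the exons of Sox1, which hold its 86 bases, and has no row in the files used here.

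Of 26 other forebrain homeobox and patterning factors tested, 1 rose and 2 fell, beside 1.96% and 2.9% of all genes tested. At an unadjusted p under 0.05, 1 was higher and 7 lower, beside 9.02% and 10.3% of all genes tested. The median log2 fold change of the list was -0.08. Pou3f1, a POU factor of neural progenitors, was measured at 1736 and 1846 in ctrl and at 2703 and 2555 in shOGT, and it rose (log2 fold change 0.55 ± 0.05, limma adjusted p = 0.00114). Its relative Pou3f4 was measured at 1036 and 1091 in ctrl and at 878 and 860 in shOGT, and it fell (-0.29 ± 0.06, limma adjusted p = 0.023, or 0.0733 without ctrl 2). Gsx1, which sets ventral forebrain progenitor identity, was measured at 103 and 88.3 in ctrl and at 57.4 and 40.5 in shOGT, and it fell (-0.97 ± 0.22, limma adjusted p = 0.0371). Pou3f1 and Pou3f4 thus moved in opposite directions, with groups that did not overlap for either. Their relatives Pou3f3 (log2 fold change -0.13, limma adjusted p = 0.144) and Pou3f2 (-0.09, limma adjusted p = 0.496) did not pass.

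Nr2e1 (chr10:42561963-42583632, minus strand) was measured at 381 and 376 in ctrl and at 350 and 359 in shOGT. Both shOGT values were lower, and the means were 378 ± 3.54 and 354 ± 6.62 (SD, n = 2 each), a difference of -6.34%. The replicates lay closer together than the groups, but the interval, -0.27 to 0.09, includes 0 (log2 fold change -0.09 ± 0.08, limma adjusted p = 0.577).

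Hopx (chr5:77086988-77115121, minus strand) was measured at 358 and 344 in ctrl and at 264 and 295 in shOGT. The groups did not overlap, and the means were 351 ± 9.76 and 279 ± 22.2 (SD, n = 2 each), a difference of -20.4%. The log2 fold change was -0.33 ± 0.09 (95% interval -0.54 to -0.12) and did not pass (limma adjusted p = 0.0803), although it did with the minimum value of 10 (0.036). Its exons share 412 bases, 27.2% of their length, with the antisense gene Hopxos, which was measured at 1.99, 1.98, 3.19 and 7.54 (log2 fold change 1.0, limma adjusted p = 0.423). Both shOGT values of Hopxos lay above both ctrl values.

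Rest (chr5:77265491-77286432, plus strand) was measured at 991 and 1044 in ctrl and at 824 and 884 in shOGT. Every shOGT value was below every ctrl value, and the means were 1017 ± 37.0 and 854 ± 42.6 (SD, n = 2 each), a difference of -16.1%. The log2 fold change was -0.25 ± 0.06 (95% interval -0.39 to -0.11), and the limma adjusted p of 0.0514 just missed the threshold. Over the 13 alternatives it ranged from 0.00314 to 0.397 and passed in 5, among them a pseudocount of 5 (0.0400), the minimum value of 10 (0.0148) and the fit without ctrl 1 (0.0305). Its log2 fold change lay close to that of Ogt (-0.26).

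**Figure D3:**
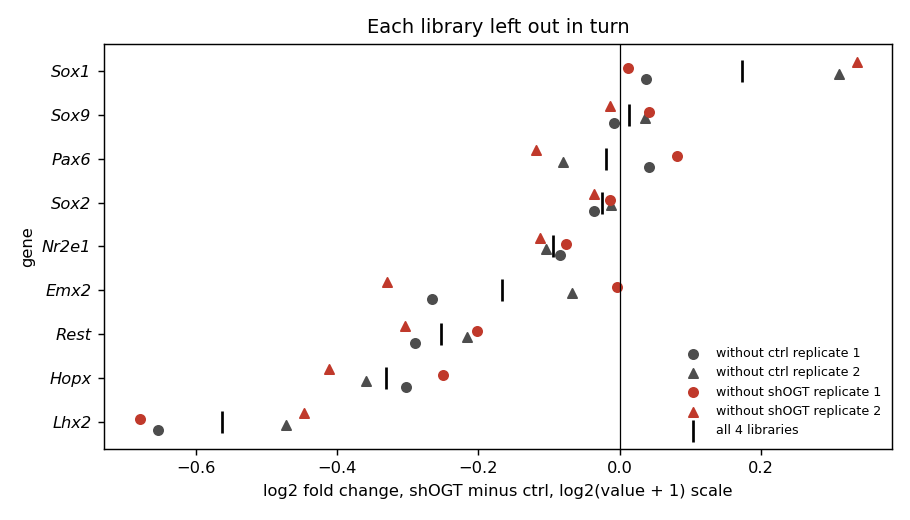
Log2 fold change of each factor (x axis) with all 4 libraries and with each library left out in turn. Lhx2, Hopx and Rest stay below 0 in every case, while Pax6 reaches 0.08 without shOGT 1 and Sox9 -0.01 without shOGT 2.

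Hopx and Rest lie on the same stretch of chromosome 5 with 150 kb between them. Within 300 kb either side of the pair, 15 other genes were tested, and this window was chosen after the values had been seen. By limma 0 of them were higher and 0 lower. At an unadjusted p under 0.05 there were 3 of the 15, beside 9.02% higher and 10.3% lower of all genes tested. These were C530008M17Rik (log2 fold change -0.15), Noa1 (0.18) and Paics. The log2 fold changes of the 15 ran from -0.60 (Spink2) to 1.0 (Hopxos) with a median of 0.02. Spink2 and Hopxos were low, with highest values of 5.95 and 7.54. Polr2b, a subunit of RNA polymerase II, had a log2 fold change of -0.01, and Srp72, of the signal recognition particle, had 0.04. Paics, an enzyme of purine synthesis, had -0.10, and Igfbp7, a secreted binding protein, had -0.33 (limma adjusted p = 0.271).

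Among 29 other regulators of stem and progenitor cells tested, 1 rose and 4 fell, beside 1.96% and 2.9% of all genes tested. At an unadjusted p under 0.05, 6 were higher and 11 lower, beside 9.02% and 10.3% of all genes tested. The median log2 fold change of the list was 0.008. Zbtb20, a zinc finger factor of the hippocampus and astrocytes, was measured at 3645 and 3524 in ctrl and at 2954 and 2984 in shOGT, and it fell (-0.27 ± 0.04, limma adjusted p = 0.00758). Nfic, a nuclear factor I protein, and Hmgb2, a chromatin protein of cycling cells, also fell, by 0.28 and 0.20 on the log2 scale (limma adjusted p = 0.0131 and 0.0148). Klf4, a Krüppel-like factor, was the one that rose, from 209 and 188 in ctrl to 319 and 271 in shOGT (log2 fold change 0.56 ± 0.12, limma adjusted p = 0.0264).

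**Figure D4:**
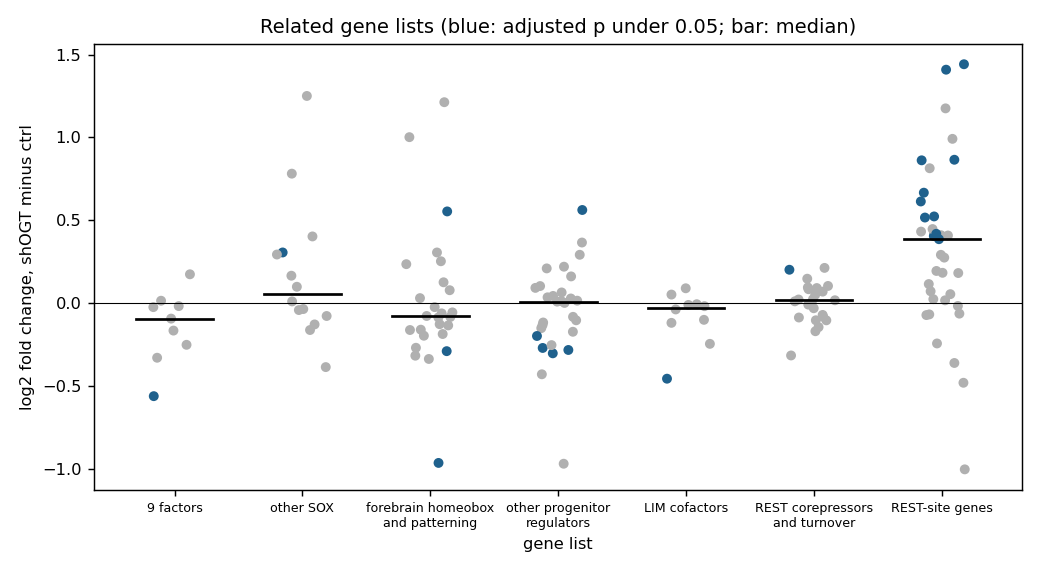
Log2 fold change (shOGT minus ctrl) of every tested gene in each related list, with 1 point per gene, blue for a limma adjusted p under 0.05 and a bar at the list's median. The median of the genes known to carry REST sites lies at 0.39, and those of the 9 factors and the other lists lie between -0.09 and 0.05.

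Rest recruits corepressors to its target genes, among them the RCOR proteins with the demethylase Kdm1a and histone deacetylases, and SIN3 proteins. Of 23 genes for corepressors and for turnover of the REST protein tested, 1 rose and 0 fell, beside 1.96% and 2.9% of all genes tested. At an unadjusted p under 0.05, 3 of the 23 were higher and 1 lower, beside 9.02% and 10.3% of all genes tested. The median log2 fold change was 0.02. The gene that rose was Smarca4, the ATPase of the BAF remodelling complex, measured at 4258 and 4373 in ctrl and at 5116 and 4809 in shOGT (log2 fold change 0.20 ± 0.04, limma adjusted p = 0.0302, or 0.0597 without ctrl 1). Rcor1 (0.21, limma adjusted p = 0.0613), Rcor2 (-0.32, limma adjusted p = 0.278), Kdm1a (0.05) and Hdac2 (-0.07) did not pass.

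Genes known to carry REST sites, mostly genes of synapses and neurosecretion, were the list with the most calls. Of 40 listed, 37 were tested, and 11 rose while 0 fell, beside 1.96% of all genes tested that rose. At an unadjusted p under 0.05 the counts were 15 higher and 0 lower, beside 9.02% and 10.3% of all genes tested. Both shOGT values lay above both ctrl values for 20 of the 37 and below them for 4, beside 25% and 24.3% of all genes tested. The groups overlapped for 13 of the 37. The median log2 fold change was 0.39, and single genes ran from -1.01 to 1.44. Of the 11, Stmn3, Chrnb2, Celsr3 and Ap3b2 had already been seen to move in these libraries when the list was written. Without those 4, 7 of 33 rose and 0 fell, with a median of 0.27. The 33 were also listed with earlier results of these data known, so their count is not an independent check. Among list members with a mean value of at least 100, the 4 genes seen earlier included, 10 of 26 rose, beside 3.62% of all genes at that level. With those 4 inside it, this count is not an independent check either. Over the 13 alternatives the median stayed between 0.24 and 0.40, and the count of those called was 11 to 13 in 8 of them and 0 in 5. Among those 5 are the fits without shOGT 1 and without shOGT 2, where 15 and 16 of the genes had an unadjusted p under 0.05.

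Celsr3, an adhesion receptor that guides axons, was measured at 73.8 and 66.5 in ctrl and at 201 and 175 in shOGT, a 2.68-fold difference (log2 fold change 1.41 ± 0.15, limma adjusted p = 0.00172). Cplx2, a complexin that regulates vesicle fusion, was measured at 2004 and 2036 in ctrl and at 2894 and 2884 in shOGT (1.43-fold, limma adjusted p = 0.000613). Ap3b2, a neuronal adaptor subunit, rose from 193 and 216 to 370 and 375 (1.82-fold, limma adjusted p = 0.00233). The groups stood apart in each of these genes. Scg3, a secretogranin of dense-core vesicles, rose from 1271 and 1284 to 1731 and 1651 (1.32-fold, limma adjusted p = 0.00341).

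The other 7 that rose were named after their values had been seen. Rph3a, a synaptic vesicle protein, was measured at 20.9 and 30.8 in ctrl and at 91.4 and 54.7 in shOGT (2.83-fold, limma adjusted p = 0.0304). Chrnb2, a nicotinic receptor subunit, rose 1.81-fold and Bsn, a scaffold of the presynaptic active zone, 1.59-fold. Cplx1 rose 1.53-fold, Stmn3, a tubulin-binding stathmin, 1.43-fold, Rundc3a 1.33-fold and the vesicle priming factor Unc13a 1.31-fold. Not every well-known gene of the list passed. Syn1, which coats synaptic vesicles, was measured at 249 and 243 in ctrl and at 303 and 300 in shOGT (log2 fold change 0.29, limma adjusted p = 0.111). Gria2, a glutamate receptor subunit, was measured at 6725 and 6667 in ctrl and at 6151 and 6667 in shOGT (-0.06, limma adjusted p = 0.468). Syp (0.43, limma adjusted p = 0.107), Chga (0.81, limma adjusted p = 0.067), Chgb (1.18, limma adjusted p = 0.0731) and Grin1 (-0.36, limma adjusted p = 0.429) did not pass either.

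**Figure D5:**
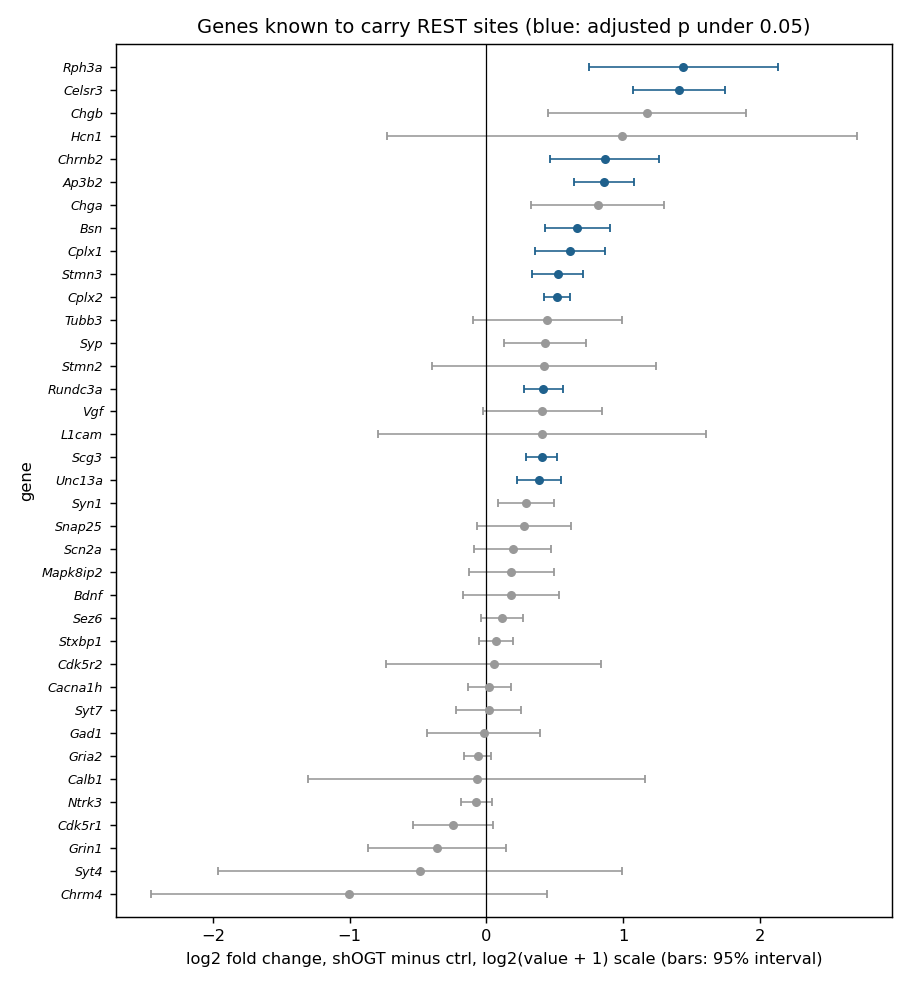
Log2 fold change (x axis, shOGT minus ctrl, with the 95% interval) of the 37 tested genes known to carry REST sites, in blue for the 11 with a limma adjusted p under 0.05. The 11 blue genes lie between 0.39 and 1.44, and the values of all 37 run from -1.01 to 1.44.

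Neuronal markers were read beside this list. Of 7 neuronal markers tested, 0 were called by limma, beside 4.86% of all genes tested. At an unadjusted p under 0.05, 1 of the 7 was higher (Gad2) and 1 lower (Dcx), beside 9.02% and 10.3% of all genes tested. The median log2 fold change of the 7 was 0.44, beside 0.39 for the REST-site genes, with 6 positive and 1 negative. Both shOGT values lay above both ctrl values for 4 of the markers and below for 1, beside 25% and 24.3% of all genes tested. The summed level of the neuronal markers was 307 and 352 in ctrl and 340 and 419 in shOGT. Gad2, which makes the transmitter GABA, was measured at 11.97 and 11.90 in ctrl and at 27.6 and 23.6 in shOGT (log2 fold change 1.04, limma adjusted p = 0.127). Dcx, a microtubule protein of newborn neurons, was measured at 40.9 and 66.5 in ctrl and at 19.1 and 29.2 in shOGT (-1.11, limma adjusted p = 0.0894). The log2 fold changes of the other markers were 0.75 for Slc17a7, 0.45 for Tubb3, 0.44 for Rbfox3, 0.27 for Snap25 and 0.09 for Syt1, and Tubb3 and Snap25 belong to both lists. Of 8 neural stem cell markers, Sox2 among them, 1 fell, Fabp7 (log2 fold change -0.49, limma adjusted p = 0.000971), and 0 rose. At an unadjusted p under 0.05, 3 of the 8 were higher (Vim, Msi1 and Gfap) and 1 lower. Of 6 oligodendrocyte lineage markers tested, 1 fell, Pdgfra, a receptor of oligodendrocyte precursors (-1.13, limma adjusted p = 0.0013), and 0 rose. At an unadjusted p under 0.05, 1 of the 6 was higher and 2 lower. Of all genes tested, 1.96% rose and 2.9% fell, with 9.02% and 10.3% at the unadjusted threshold. Summed ependymal markers were 674 and 721 in ctrl and 856 and 798 in shOGT, and summed mural and fibroblast markers ranged from 66.9 to 109. The median of the neuronal markers was the value of Rbfox3, measured at 17.9 to 33.0 over the 4 libraries. Slc17a7 was measured at 1.98 to 5.66. The part of cell composition in the values of the REST-site genes was not tested.

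A short form of RE1, the DNA element that REST binds, was searched on both strands of the same promoter windows. The letters that matched are in capitals. This form was chosen after 7 forms had been tried, and it lay in 33 of the 32851 windows (0.1%). It was in the windows of 0 of the 7 stem cell factors and of 3 of the 24 REST-site genes that had a window. Of the other forms tried, TTCAGCACC was also in 3 of the 24, and the rest were in 0 or 1 each. The 3 REST-site genes with the chosen form are all shown, and none of these matches lies inside a GENCODE gene. Celsr3 rose, and Syn1 and Gria2 did not pass.
Celsr3, chr9:108825916-108825939, plus strand, 118 bases before the start: cgttcAGCACCGTGGGCAGcactt
Syn1, chrX:20921129-20921152, minus strand, 222 bases before the start: gattcAGCACCGCGGTCAGagcct
Gria2, chr3:80802987-80803010, plus strand and opposite to the gene, 164 bases before the start: attttAGCACCGCGGACAGcgctt
Of the 32 genes with this form, 20 were tested. Of these, 2 rose, Celsr3 and Ogdhl (log2 fold change 0.41, limma adjusted p = 0.00508 for Ogdhl), and 0 fell. Celsr3 had already been seen to move when the REST-site list was written. Of all genes tested, 1.96% rose and 2.9% fell. The median log2 fold change of the 20 was 0.10. With the shorter letters TTCAGCACC, found in 0.371% of the windows, 4 of 62 tested genes rose and 5 fell, with a median of -0.0003.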

How the data were processed

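The authors deposited 1 signal value per gene and library, on build mm10 per the submitters' processing notes. No source used here gives the aligner, counting tool, annotation, normalization or use of strand. Every deposited value was a whole multiple of a step particular to its library, within 0.01 of a step, but the values were used as they stand and no model of read counts was run. Symbols and exons came from GENCODE M21, which matched 25242 identifiers and left 19 unmatched.

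The groups were compared with limma 3.58.1 in R 4.3.3, with a variance trend, on log2(value + 1), for 21829 genes at 1 or more in at least 2 of the 4 libraries. This scale understates changes of low genes. P-values were Benjamini-Hochberg adjusted over all genes tested, and under 0.05 is called. An exact permutation of 2 against 2 libraries cannot go below 0.333. The fit was tested on simulated data. Named were the 9 factors, genes overlapping their exons, up to 4 called genes of each list by p (otherwise 2), the 3 genes nearest a called factor, and Ogt; further named genes were chosen after their values were seen. Some genes of the lists are counted but not reported here by name. The members and lists were chosen with earlier results of these data known. In 13 alternatives the pseudocount, filter, scaling, variance trend, replicate number or a single library was changed.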

Additional observations from a re-analysis of the deposited data

How the results depend on the processing

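Counts are given of calls over all genes tested, then the 9 factors, other SOX factors, homeobox factors, progenitor regulators, REST corepressors, REST-site genes and LIM cofactors. The reported counts were 1060, 1, 1, 3, 5, 1, 11 and 1. No filter, quantile normalization and no variance trend each gave 0 for every count, while unadjusted p-values under 0.05 numbered 4302, 3998 and 2763, and the cause was not tested. A minimum value of 10 gave 1955, 3, 2, 4, 9, 2, 13 and 2, and the same minimum with quantile normalization, chosen after seeing the data, 1657, 2, 2, 4, 9, 2, 13 and 2. A pseudocount of 5 gave 2 factors and 2 other SOX factors, and equal totals gave 2 other SOX factors and 2 REST corepressors. Leaving out single libraries gave 0 to 1220, 0 to 2, 0 to 2, 0 to 4, 0 to 9, 0 to 1, 0 to 13 and 0 to 1. In the same fits the log2 fold change turned sign for Pax6 (range -0.12 to 0.081, with 0.042 without ctrl 1) and Sox9 (range -0.014 to 0.042, with -0.008 without ctrl 1).

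The replicate numbers were not shown to pair the libraries: the deviations of ctrl 1 and shOGT 1 correlated at 0.0239 over 11080 genes, with only 2 pairs. With the replicate number as a block the counts were 2302, 3, 4, 6, 11, 3, 13 and 2. Tests on recovered reads with edgeR and DESeq2 were planned and not run, because the unit of the ctrl files could not be settled as reads. The interval of Emx2, at 67 to 97 implied reads, ran from -0.58 to 0.24.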
